A study of Arabidopsis thaliana with 24 samples.

Results

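GI (GIGANTEA, AT1G22770) is the evening-phased clock gene of Arabidopsis thaliana described here. It was taken by its name and locus, 1 of 13356 named genes and read by 1 of the 22746 probe sets tested, and is followed through all 8 groups of the study. The study measured leaf transcripts on Affymetrix arrays and asks how the time of day at which the immune hormone salicylic acid (SA) is given bears on the response to it. All 24 arrays come from true leaves of wild-type, soil-grown plants that were 23 days old. The plants were raised under a day length of 12 h and then moved into constant light, 24 h before treatment, where they stayed. The groups are SA (1 mM) given at ZT36 and labelled 3 h or 0 h after treatment, SA given at ZT24 and labelled 3 h or 0 h, and water at the same times with the same labels. ZT counts hours on the zeitgeber clock, and each group holds 3 arrays that the labels call biological replicates, without saying how many plants or pots stand behind each.

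GI encodes a large plant-specific protein of the circadian clock and of photoperiodic flowering. In Arabidopsis its transcript peaks late in the day and is low around dawn, and the rhythm goes on in constant light. The protein stabilises the F-box protein ZTL, which marks other clock proteins for degradation, and acts with the related protein FKF1 to remove repressors of the flowering regulator CO.

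Values are log2 expression after each probe set was set relative to its own median over the 24 arrays, so 0 is the median array and no absolute level is known. For the same reason the leaf label could not be checked against leaf genes. In leaves, fewer cells that express GI and less GI RNA in each cell cannot be told apart. Arrays of one group correlated at r of 0.618 to 0.939 across probe sets, and array medians lay between -0.0354 and 0.0334. Whole groups stood apart in ways their labels do not describe. The arrays labelled water 3 h differed from those labelled water 0 h at 0.00879% of probe sets at ZT36 and at 0% at ZT24. The arrays labelled SA 0 h, which by their label were taken when SA was given, differed from water 0 h at 29.0% of probe sets at ZT36 and 16.2% at ZT24. UGT76B1, whose product glucosylates SA, read 8.34, 8.64 and 8.39 in the arrays labelled SA 3 h at ZT36 and -0.19, 0.02 and -0.02 in those labelled SA 0 h, against 0.09, -0.07 and 0.16 in water 0 h. GRX480, an SA-induced glutaredoxin gene, and WRKY53, a transcription factor gene of defence and senescence, behaved likewise, with ZT36 differences of 5.01 and 3.89 between SA 3 h and water 3 h (both called) and of 0.01 and 0.69 between SA 0 h and water 0 h (neither called). The cause was not tested, and an exchange of the labels water 3 h and SA 0 h cannot be told apart from other causes here. The labels were kept, but this doubt bears on every SA against water value below. It bears as well on the comparisons within water and within SA that use arrays labelled water 3 h or SA 0 h. If those labels were exchanged, the arrays labelled SA 0 h would be the control of SA 3 h. The SA effect on GI would then be -0.23 at ZT36 and -0.50 at ZT24, neither called, in place of -2.83 and 0.68 against water 3 h. As labelled, that comparison is of SA arrays 3 h apart, which mixes the hour of sampling with SA.

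In every SA group GI lay between its high level in water-treated leaves at ZT36 and its low level in water-treated leaves at ZT24. At ZT36 the SA 3 h arrays read 0.33, -0.02 and 0.11 and the SA 0 h arrays 0.02, 0.96 and 0.13, against 2.83, 3.17 and 2.90 in water 3 h and 3.27, 2.85 and 3.04 in water 0 h. All 6 SA arrays at ZT36, the highest at 0.96, lay below all 6 water arrays, the lowest at 2.83. At ZT24 the SA 3 h arrays read -0.47, -0.45 and -0.68 and the SA 0 h arrays -0.23, -0.06 and 0.20, against -0.88, -1.31 and -1.45 in water 3 h and -0.76, -1.15 and -1.22 in water 0 h. There the order was turned round, with all 6 SA arrays, from -0.68 to 0.20, above all 6 water arrays, from -1.45 to -0.76. The 12 SA arrays thus spanned -0.68 to 0.96, while none of the 12 water arrays lay between -0.76 and 2.83.

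**Figure D1:**
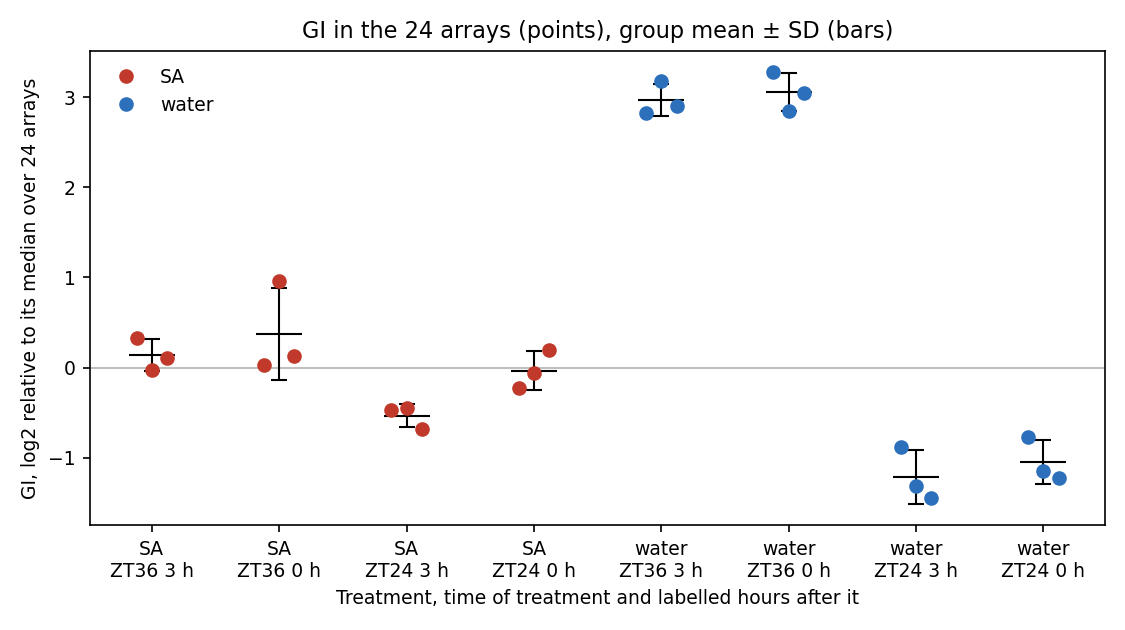
GI in each of the 24 arrays (points, log2 relative to its median over all arrays) by group, with the group mean and SD (n = 3). All SA arrays lie from -0.68 to 0.96, between the water arrays at ZT36, at 2.83 or more, and those at ZT24, at -0.76 or less.

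Ordered by mean, the groups were water ZT36 0 h (3.05 ± 0.21, SD, n = 3 here and below), water ZT36 3 h (2.97 ± 0.18), SA ZT36 0 h (0.37 ± 0.52), SA ZT36 3 h (0.14 ± 0.18), SA ZT24 0 h (-0.03 ± 0.22), SA ZT24 3 h (-0.53 ± 0.13), water ZT24 0 h (-1.04 ± 0.25) and water ZT24 3 h (-1.21 ± 0.30). Neighbours in this order overlapped except at 3 steps. The widest step, of 1.86 between the nearest arrays, lay between water ZT36 3 h and SA ZT36 0 h. Smaller steps separated SA ZT24 0 h from SA ZT24 3 h, by 0.22, and SA ZT24 3 h from water ZT24 0 h, by 0.08. The SD of SA ZT36 0 h was the widest of the 8 and came from replicate 2, at 0.96 beside 0.02 and 0.13.

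Between the times of treatment, GI differed little in the arrays labelled SA. At SA 3 h GI was higher at ZT36 by 0.67 ± 0.20 (SE from limma, Benjamini-Hochberg adjusted p = 0.0166 over all probe sets, where 28.0% of probe sets were called), a 1.59-fold difference. Leaving out replicate 1 of SA ZT36 3 h gave 0.58 (adjusted p = 0.0739), leaving out replicate 3 of SA ZT24 3 h gave 0.60 (adjusted p = 0.0619), and quantile normalization gave 0.50 (adjusted p = 0.319), each of which ends the call. At SA 0 h the difference was 0.41 ± 0.20 (95% interval -0.02 to 0.83, limma adjusted p = 0.161, where 24.5% were called), and it was 0.11 without SA ZT36 0 h replicate 2. The groups did not overlap at SA 3 h, and they did at SA 0 h.

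Time of treatment separated GI widely in the arrays labelled water. In the water 0 h arrays GI was higher at ZT36 than at ZT24 by 4.1 ± 0.20 on the log2 scale (95% interval 3.68 to 4.52, limma adjusted p = 1.47e-12), a 17.1-fold difference. In the water 3 h arrays the difference was 4.18 ± 0.20 (adjusted p = 1.23e-12), 18.1-fold. By absolute size it ranked 75 in water 0 h and 60 in water 3 h among 22746 probe sets. Of all probe sets, 40.9% were called in the first comparison and 38.1% in the second, so a call by itself was common in these comparisons. If the labels water 3 h and SA 0 h were exchanged, the 4.18 would be the SA 0 h difference. The water 3 h difference would then be the 0.41 of the arrays labelled SA 0 h, which did not pass.

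At 3 h after treatment at ZT36, GI was lower in SA than in water by 2.83 on the log2 scale, at -2.83 ± 0.20 (limma adjusted p = 5.43e-10), which is 7.10-fold lower. This comparison called 40.2% of probe sets, and GI ranked 225 by absolute size. At ZT24 the effect had the other sign. GI was higher in SA by 0.68 ± 0.20 (adjusted p = 0.0104, where 38.1% were called), 1.60-fold, and ranked 4128. Leaving out replicate 3 of water ZT24 3 h ended the ZT24 call (0.56, adjusted p = 0.0594). The difference between the 2 effects, ZT36 minus ZT24, was itself -3.51 ± 0.29 (95% interval -4.11 to -2.91, limma adjusted p = 4.99e-08), where 20.7% of probe sets were called, and it ranked 35 of 22746.

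The arrays labelled 0 h gave much the same values. GI stood at -2.68 ± 0.20 in SA against water at ZT36 (limma adjusted p = 2.16e-08), 6.42-fold lower and rank 35 by size. At ZT24 it stood at 1.01 ± 0.20 (adjusted p = 0.00151), 2.02-fold higher and rank 531. The ZT36 minus ZT24 difference of these effects was -3.69 ± 0.29 (adjusted p = 1.56e-08, where 26.2% were called), rank 51.

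**Figure D2:**
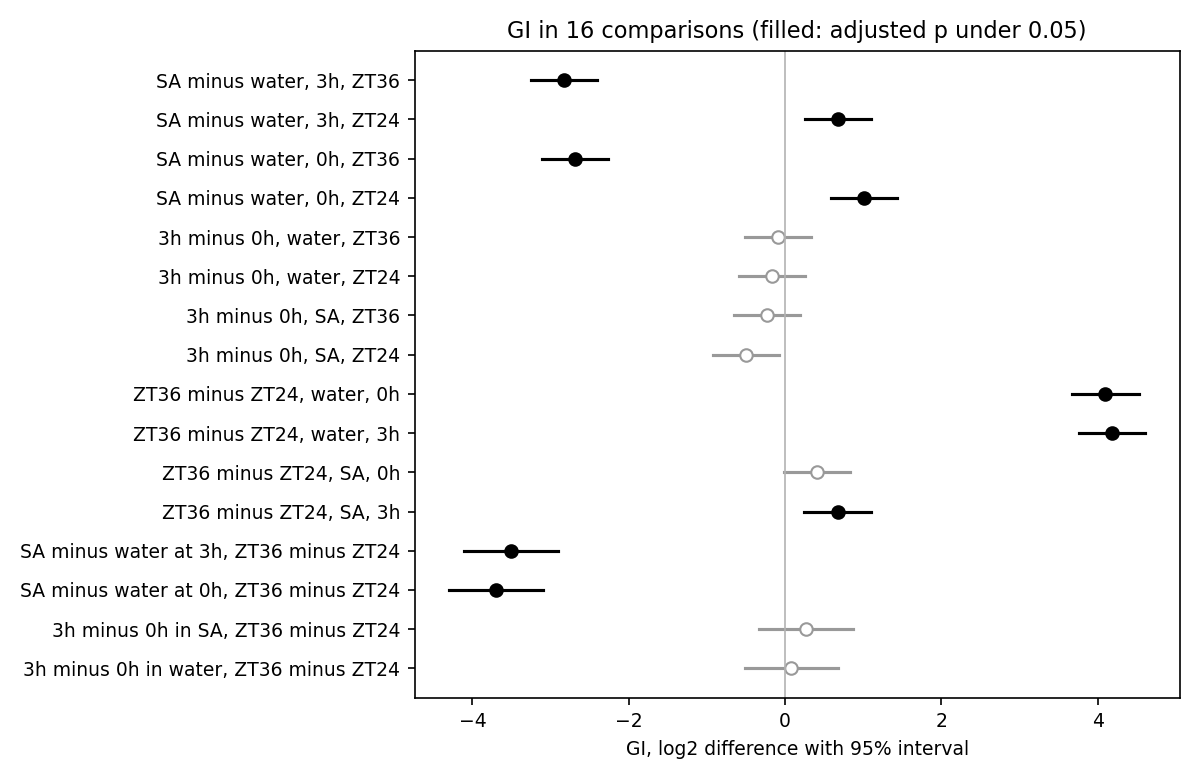
GI in the 16 comparisons, as log2 differences with 95% intervals from limma (filled points passed an adjusted p of 0.05). The ZT36 minus ZT24 difference is 0.41 and 0.67 in SA and 4.1 and 4.18 in water, and the SA effect is negative at ZT36 and positive at ZT24.

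Within a treatment, GI did not pass the test between the arrays labelled 3 h and 0 h. The 3 h minus 0 h difference in water was -0.09 ± 0.20 at ZT36 (95% interval -0.51 to 0.34, limma adjusted p = 0.907) and -0.17 ± 0.20 at ZT24 (interval -0.59 to 0.25, adjusted p = 1). In SA it was -0.23 ± 0.20 at ZT36 (interval -0.66 to 0.19, adjusted p = 0.477, where 29.7% of probe sets were called), and 0.06 without SA ZT36 0 h replicate 2. At ZT24 it was -0.50 ± 0.20 (interval -0.92 to -0.08, adjusted p = 0.0681, where 31.7% were called), and the groups did not overlap. The ZT24 difference passed with only the arrays compared (adjusted p = 0.0242) and with array weights (-0.61, adjusted p = 0.0459). So with SA 0 h in place of water 3 h as control, the SA 3 h arrays differed from it in GI by between -0.92 and 0.19 within these intervals, while UGT76B1 was higher by 8.52 ± 0.13 at ZT36 and 7.75 ± 0.13 at ZT24. The change between the labelled hours did not pass as different between ZT36 and ZT24, at 0.27 ± 0.29 in SA (adjusted p = 0.854, where 0.598% of probe sets were called) and 0.08 ± 0.29 in water (adjusted p = 0.964).

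As labelled, GI kept little of its time-of-treatment difference in SA when set beside other probe sets with a large one. In water 0 h, 208 probe sets, GI included, differed between the times by at least 3 on the log2 scale, 108 higher and 100 lower at ZT36. In SA 0 h the median of these was at 40.4% of its water 0 h difference (quartiles 14.6% and 62.5%) and GI was at 9.88%, with 39 of the 208 below it. In SA 3 h the median was 38.9% (quartiles 18.0% and 60.0%) and GI was at 16.4%, with 46 below it. In water 3 h the median was 94.3% and GI 102%. The SA 0 h share of GI moved with single settings, to 2.66% without SA ZT36 0 h replicate 2 (30 of the 208 below it), 6.21% with array weights and 15.5% after quantile normalization, where the median was 58.1%. In SA 3 h it ranged from 14.1% to 18.4% with single SA arrays left out and was 12.7% after quantile normalization. The difference turned its sign in 24 of the 208 in SA 0 h and in 24 in SA 3 h, and GI was not among them. These probe sets were chosen by their size in water 0 h, which by itself lowers the other shares, so no test is given. If the labels water 3 h and SA 0 h were exchanged, the 9.88% of GI and the median of 40.4% would be water 3 h values. The 102% and 94.3% would then be SA 0 h values, and a small share would not set SA apart from water.

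**Figure D3:**
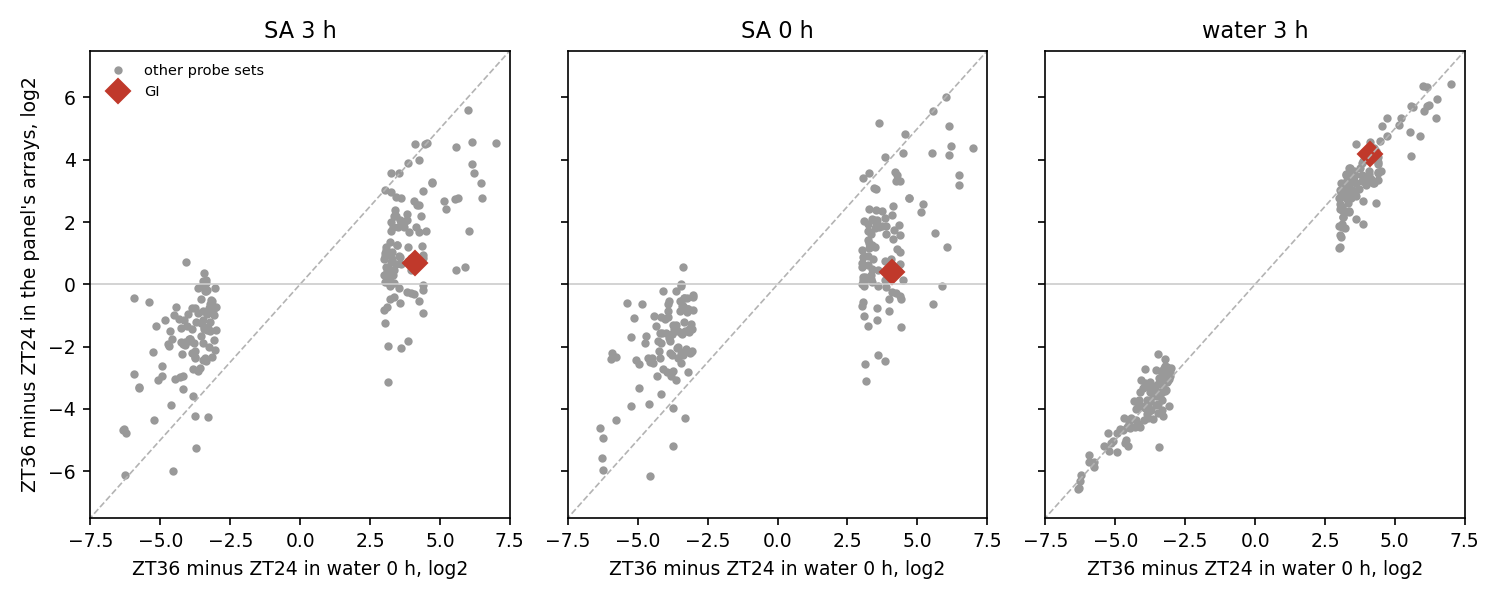
ZT36 minus ZT24 differences (log2) of the 208 probe sets with an absolute difference of at least 3 in water 0 h (x axis), read in SA 3 h, SA 0 h and water 3 h (y axes), with GI as a diamond and equality as the dashed line. In both panels labelled SA, GI lies near 0, at 0.67 and 0.41, and in the panel labelled water 3 h the points follow the line. A probe set at 7.99 in water 0 h lies beyond the x axis and is not drawn. It stood at 1.03 in SA 3 h, 0.32 in SA 0 h and 6.19 in water 3 h.

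Genes of the clock and of its outputs were taken from lists of 84 loci (clock factors, flowering, light signalling and salt tolerance), of which 13 had a named probe set besides GI. The others, among them ZTL, FKF1 and CO, are not analysed here. The 13 hold none of the listed pseudo-response regulators, evening complex genes, GI-binding F-box genes or salt tolerance partners of GI. Of 14 listed morning clock factors they hold 2, AT5G52660 and AT4G01280. In SA 3 h, 4 of the 13 were higher and 3 lower at ZT36 than at ZT24, beside 16.3% higher and 11.6% lower of all probe sets. After quantile normalization 4 and not 7 passed, with TIC, SPY and SNZ lost. The share of all probe sets under that setting is not given here. In SA 0 h, 3 were higher and 2 lower, beside 14.6% and 9.82%. In water 3 h, 5 were higher and 5 lower, beside 21.2% and 16.8%, and in water 0 h again 5 and 5, beside 22.2% and 18.7%. Their median difference was 0.02 in SA 3 h, -0.01 in SA 0 h, 0.06 in water 3 h and 0.02 in water 0 h, beside -0.01, -0.02, -0.03 and -0.01 over all probe sets.

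The SA effect on the 13 listed genes was mixed. At 3 h and ZT36, 1 was higher and 5 were lower in SA, beside 18.5% and 21.6% of all probe sets, with a median of -0.24 beside -0.02. At 3 h and ZT24, 3 were higher and 2 lower, beside 17.7% and 20.5%, with a median of 0.01 beside -0.03. In the arrays labelled 0 h, 1 was higher and 4 were lower at ZT36, beside 15.1% and 13.9%, and 2 were higher and 2 lower at ZT24, beside 8.26% and 7.95%. The 0 h medians were -0.02 at ZT36 and -0.02 at ZT24, beside -0.03 and -0.01. After quantile normalization 3 and not 5 passed at 3 h and ZT24, and 3 and not 5 at 0 h and ZT36. Shares of all probe sets under that setting are not given here.

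COR27, a cold-regulated gene that feeds back on clock genes, was one of those high at ZT36 with GI. It read 1.43, 1.08 and 1.19 in SA ZT36 3 h, against 3.71, 4.07 and 4.08 in water ZT36 3 h. At ZT24 it read -2.44, -2.31 and -2.26 in SA 3 h, against -2.10, -2.26 and -1.08 in water 3 h. SA arrays were thus lower at ZT36, by -2.72 ± 0.22 (limma adjusted p = 3.53e-09), while the ZT24 difference of -0.52 did not pass (adjusted p = 0.0744) and had the opposite sign to that of GI. It passed when replicate 1 or 2 of water ZT24 3 h was left out (-0.66 with adjusted p = 0.0412, and -0.74 with adjusted p = 0.0148). COR27 differed between the times by 3.57 ± 0.22 in SA 3 h and 4.45 ± 0.22 in SA 0 h, against 5.77 ± 0.22 in water 3 h and 6.21 ± 0.22 in water 0 h. AT4G33980 followed the same order, at 3.88 and 4.16 in SA 3 h and 0 h and 5.73 and 6.14 in water 3 h and 0 h. Whether these shares differ from that of GI was not tested. Against SA 0 h in place of water 3 h, COR27 in SA 3 h stood at -0.73 at ZT36 (limma adjusted p = 0.0151). That call was lost with some single SA ZT36 arrays left out. At ZT24 it stood at 0.15, not called, and AT4G33980 at -0.30 and -0.01, neither called. The ZT36 and ZT24 values differed by -0.88 for COR27 and -0.29 for AT4G33980, neither called. After quantile normalization they differed by -3.40 and -2.94 (adjusted p = 4e-05 and 2.12e-06). The SA effect at 0 h and ZT36 was -2.12 for COR27 and -1.99 for AT4G33980, and quantile normalization ended both calls, at -0.47 (adjusted p = 0.264) and -0.30 (adjusted p = 0.285). The same setting brought the ZT36 minus ZT24 difference of the 0 h SA effects to 0.39 for COR27 and -0.02 for AT4G33980, against -1.76 and -1.97 without it. That setting gives every array the same spread. Before it, array SDs were 0.29, 0.29 and 0.30 in SA ZT36 0 h, against 0.43, 0.47 and 0.55 in water ZT36 0 h. It thus widens the SA ZT36 0 h values, and whether the calls ended through this rescaling was not tested.

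TIC, a clock regulator needed for robust rhythms, was higher at ZT36 in SA 0 h by 0.75 ± 0.13 and in SA 3 h by 0.42 ± 0.13, both called. The SA 3 h call ended when the fit held only the arrays compared (adjusted p = 0.0626), when quantiles were normalized (0.33, adjusted p = 0.212), and on leaving out replicate 1 of SA ZT36 3 h (0.36, adjusted p = 0.0898) or replicate 2 of SA ZT24 3 h (0.27, adjusted p = 0.156). In water it was higher at ZT36 by 1.01 ± 0.13 at 3 h and 0.85 ± 0.13 at 0 h (limma adjusted p = 3.2e-06 and 2e-05). FIO1, which encodes an RNA methyltransferase that affects clock period, was higher at ZT36 in water 0 h by 0.59 ± 0.12. SPY, an O-fucosyltransferase that restrains gibberellin signalling and binds GI, was higher by 0.29 ± 0.08 there, a call lost with only the arrays compared (adjusted p = 0.0725). The clock genes XCT and LIP1 stood at 0.05 and 0.02 in water 0 h and did not pass.

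HYH, a bZIP factor of light signalling, ran opposite to GI over the 24 arrays (r = -0.965), though not in every comparison. It read 0.04, 0.27 and 0.18 in SA ZT36 3 h, against -3.59, -3.79 and -3.82 in water ZT36 3 h. Its SA effect at 3 h was 3.90 ± 0.16 at ZT36 (limma adjusted p = 2.69e-13) and 0.34 at ZT24, which did not pass, and the 2 effects differed by 3.56 ± 0.23 (adjusted p = 3.22e-09). The ZT24 effect had the same sign as that of GI. Against SA 0 h in place of water 3 h, HYH in SA 3 h was higher by 1.28 at ZT36 and 0.97 at ZT24, both called. Those 2 values differed by 0.30, which did not pass, and by 1.00 after quantile normalization (adjusted p = 0.0119). SNZ, a floral repressor of the AP2 family, was lower at ZT36 in water 0 h by -1.02 ± 0.27 (adjusted p = 0.00422), while the related SMZ stood at -0.01. AT1G69570 differed between the times of treatment in the opposite direction to GI. It was lower at ZT36 by -2.76 ± 0.13 in SA 3 h and -2.70 ± 0.13 in SA 0 h, against -1.34 ± 0.13 in water 3 h and -1.04 ± 0.13 in water 0 h, so that its difference was wider in SA arrays. The test of that widening gave -1.41 ± 0.18 at 3 h (adjusted p = 1.4e-05), and -0.49 after quantile normalization (adjusted p = 0.0747). The SA effect on AT1G69570 at 3 h had the same signs as that on GI, at -0.40 at ZT36 and 1.01 at ZT24. Both were called, and neither after quantile normalization. AT5G52660 and AT4G01280 were lower at ZT36 in water 3 h by -0.45 ± 0.09 and -0.47 ± 0.11 and did not pass between the times in SA.

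**Figure D4:**
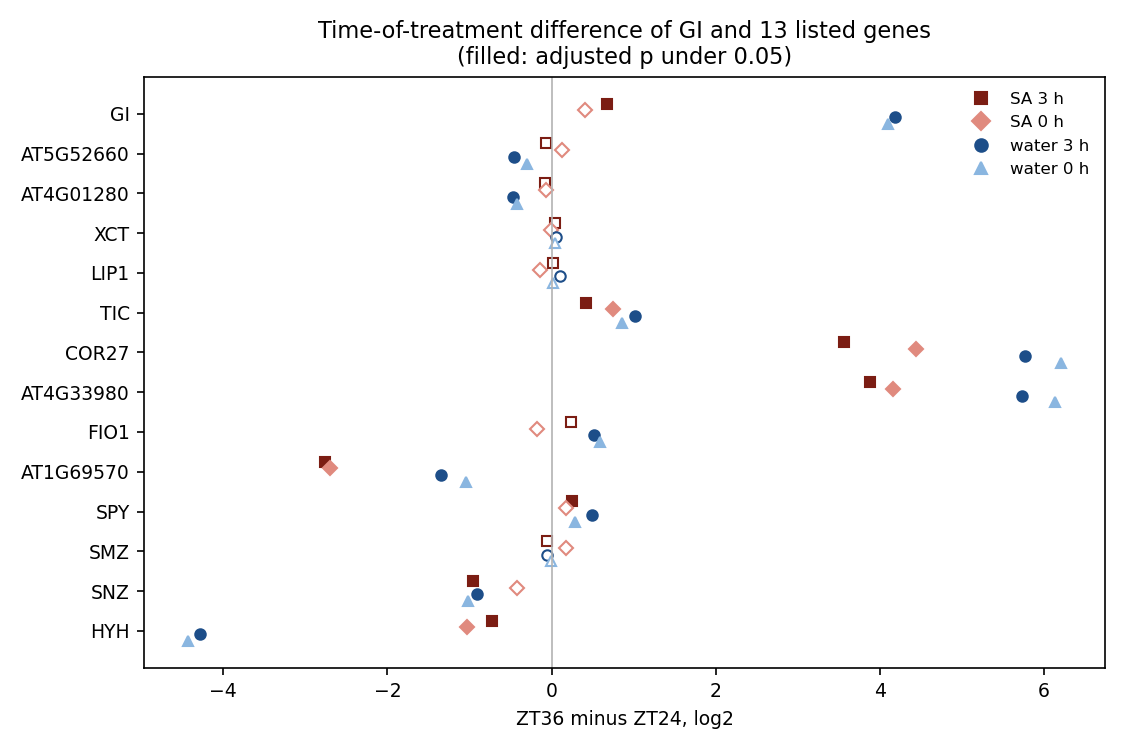
ZT36 minus ZT24 differences (log2) of GI and the 13 listed genes in the SA 3 h, SA 0 h, water 3 h and water 0 h arrays (filled symbols passed an adjusted p of 0.05). GI lies at 0.67 and 0.41 in SA, COR27 and AT4G33980 stay above 3.5, and AT1G69570 lies further from 0 in SA than in water.

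The genes most like GI were ranked by Pearson's r with GI over the 24 arrays, among the other 13355 named genes. They were chosen from these values, so their levels are given as a description. The arrays share groups, and the 6 water ZT36 arrays form a cluster of their own in GI, which weighs on r. The highest were AT5G57655 (r = 0.966), AT2G15880 (0.962), the aminopeptidase gene APM1 (0.960), AT3G53990 (0.957), AT4G05150 (0.955), AT1G10770 (0.955), the UDP-glycosyltransferase gene UGT85A5 (0.954), AT5G27280 (0.953), AT1G07040 (0.952) and AT1G09910 (0.952). The next in rank, not named, also stood at 0.952. Over all probe sets 1.38% had an r above 0.9, 315 in number. Over the 18 arrays without water ZT36, these 10 kept r of 0.634 (AT1G10770) to 0.852 (APM1).

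AT5G57655 came closest to GI in amplitude as well, with a slope on GI of 0.87. It averaged 0.11 and 0.39 in SA ZT36 3 h and 0 h, against 2.39 and 2.69 in water ZT36 3 h and 0 h. At ZT24 it averaged -0.74 and -0.05 in SA, against -1.04 and -1.28 in water. APM1 had the same shape at a slope of 0.18, with 0.08 in SA ZT36 3 h, against 0.49 in water ZT36 3 h. Across replicates, after the group means were taken out, APM1 alone of the 10 varied with GI at r above 0.5 (0.615), while AT5G57655 stood at -0.06. The lowest r belonged to AT1G45688 (-0.978), AT5G19850 (-0.974), HYH (-0.965), AT1G65490 (-0.964) and AT2G04795 (-0.963), and 0.356% of probe sets lay below -0.9. AT1G45688 averaged 0.01 in SA ZT36 3 h, against -1.07 in water ZT36 3 h, and 0.09 in SA ZT24 3 h, against 0.43 in water ZT24 3 h.

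**Figure D5:**
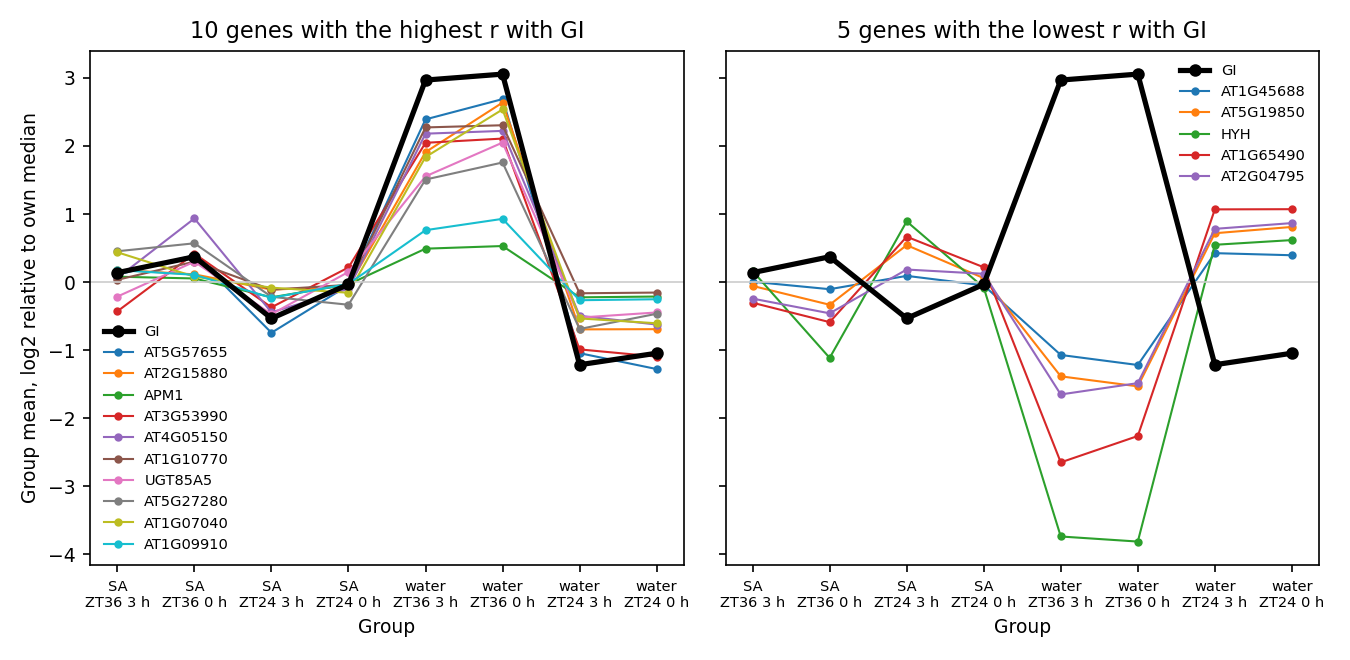
Group means (log2 relative to each gene's own median, n = 3 arrays) of GI (black) and of the 10 genes with the highest r with it (left) and the 5 with the lowest (right). All 10 peak in the water ZT36 groups, the 5 have their lowest values there, and HYH is the deepest at -3.81.

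Of the 5 protein-coding loci on either side of GI by locus number, 7 had a named probe set. AT1G22790 shared the high water ZT36 values, with r = 0.896 to GI. It differed between the times by -0.00 in SA 3 h and 0.16 in SA 0 h, which did not pass, against 0.54 ± 0.09 in water 3 h and 0.93 ± 0.09 in water 0 h (limma adjusted p = 7.84e-05 and 6.46e-08). Its SA effect at 3 h was -0.50 ± 0.09 at ZT36 (adjusted p = 0.000153) and 0.05 at ZT24, and the effects differed by -0.55 ± 0.13 (adjusted p = 0.00468). AT1G22750 was lower at ZT36 throughout, by -0.81 ± 0.07 in SA 3 h and -0.92 ± 0.07 in SA 0 h, against -0.70 ± 0.07 in water 3 h and -0.66 ± 0.07 in water 0 h. AT1G22730 was higher at ZT36 in all 4 conditions, by 0.29 to 0.48. AT1G22810 and AT1G22830 differed by -0.22 and 0.23 in water 0 h, and neither passed with only the arrays compared (adjusted p = 0.0752 and 0.0836). AT1G22720 and AT1G22800 passed in none of the 16 comparisons with all arrays in the fit and no weights. Among calls gained in other settings, AT1G22800 passed between the times in water 3 h with only the arrays compared (-0.24, adjusted p = 0.044) and with array weights (adjusted p = 0.022). AT1G22720 passed there without water ZT36 3 h replicate 2 (-0.18, adjusted p = 0.0363).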

How the data were processed

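RNA of true leaves was measured on 24 Affymetrix arrays, 1 sample each. The authors deposited log2 values of 22810 probe sets, made with RMA (no version) per the submitters' processing notes. RMA corrects background, normalizes between arrays by quantiles and works on the log2 scale, and the log base is taken from it. In these values every probe set has a median of 0 over the arrays, within 5e-07, so each was centred before deposit, which removes levels and leaves differences between groups. Genome build and annotation are not given in the sources used here. The 64 control probe sets were left out.

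Groups came from the sample titles. limma 3.58.1 in R 4.3.3 fitted a mean per group to all 24 arrays (16 residual and 4.03 prior degrees of freedom), with 2-sided p values adjusted by Benjamini-Hochberg over 22746 probe sets in each of 16 comparisons, at 0.05. Nothing says that replicates came from separate plantings, so p values measure the spread between these arrays, whose number limits the precision. On simulated data with independent noise, the fit recovered most of the largest changes put in. That check does not bear on small differences or on the labels. Names came from the platform table, updated through RefSeq (TAIR10.1, names and locus order only): 13513 probe sets had 1 gene, 503 several and 8730 none. For each gene the plain probe set with the lowest identifier was kept. Named genes are GI, every measured member of the clock, flowering, light, salt and SA response lists, and the 10 highest and 5 lowest by likeness. The neighbours of GI and the 208 probe sets were added after the data were seen. GI and the lists were chosen with earlier results of these data known. Alternatives were quantile normalization, only the arrays compared, a trended and robust prior, array weights, a block on runs of title numbers, a filter, each array left out, and an exact permutation test. Quantile normalization was run on the centred values. It gives every array the same spread, although array SDs ran from 0.286 to 0.648, so it rescales whole groups. The planned filter on low means could not be run on centred values, so the 25% of probe sets with the lowest SD were left out instead. Figures used matplotlib 3.10.9 in Python 3.11.15.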

Additional observations from a re-analysis of the deposited data

Results flagged for a closer look

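The SA effect on GI differed between the times of treatment, ZT36 minus ZT24, in both sets of arrays as labelled, with water as control. The difference was -3.51 ± 0.29 at 3 h (limma adjusted p = 4.99e-08), from an effect of -2.83 at ZT36 and 0.68 at ZT24. It was -3.69 ± 0.29 at 0 h (adjusted p = 1.56e-08), from -2.68 and 1.01. All 6 SA arrays lay below all 6 water arrays at ZT36, and above all 6 at ZT24. The 0 h value rests on arrays labelled as taken when SA was given, and the 3 h value on arrays labelled water 3 h. Whether those 2 labels were exchanged cannot be told from these data. If they were, the arrays labelled SA 0 h would be the control of SA 3 h. The effects would then be -0.23 at ZT36 and -0.50 at ZT24, and their difference 0.27 ± 0.29 (limma adjusted p = 0.854).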

How the results depend on the processing

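Of the GI comparisons, 7 (the SA effects at ZT36 and at ZT24 0 h, their differences between the times, and the water time differences) kept direction and call in all 104 recomputations with limma, with adjusted p up to 0.0125. Every recomputation kept the labels as given, so none bears on a possible exchange of water 3 h and SA 0 h. With single arrays left out, the SA effect at 3 h and ZT24 ranged from 0.56 to 0.85 and the ZT36 minus ZT24 difference in SA 3 h from 0.58 to 0.75, each losing its call as given above. Quantile normalization gave 0.50 for that difference (adjusted p = 0.319). The 3 h minus 0 h difference in SA at ZT24 passed with array weights (-0.61) and with only the arrays compared (-0.50). An exact permutation test of 3 against 3 arrays cannot go below p = 0.1, and it gave p = 0.1 for the called values (-2.83, 0.68, -2.68, 1.01, 4.1, 4.18 and 0.67). The permutation p was also 0.1 for the 3 h minus 0 h difference in SA at ZT24 (-0.50), which limma did not call. For the 13 listed genes, brackets give the count in the main fit and the share of all probe sets called there. After quantile normalization 3 passed for the SA effect at 3 h and ZT24 (5, 38.1%) and 3 for that at 0 h and ZT36 (5, 29.0%). For 3 h minus 0 h in SA at ZT24, 6 passed (3, 31.7%), and for ZT36 minus ZT24 in SA 3 h, 4 (7, 28.0%). The difference between times of 3 h minus 0 h in SA had 4 (0, 0.598%). Array weights gave 1 for 3 h minus 0 h in water at ZT36 (0, 0.00879%). With only the arrays compared, TIC and SPY lost their SA 3 h call. Shares of all probe sets under these settings are not given here.

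The replicate block on runs of title numbers, which the labels do not call batches, changed no GI call. Under it, the SA effect at 3 h was -2.83 (adjusted p = 2.25e-09) at ZT36 and 0.68 (adjusted p = 0.012) at ZT24. After group means were removed, 14 of 24 arrays correlated best with their own run. For arrays of different groups the mean r was 0.0531 within a run and -0.0262 between runs. Whether the runs mark batches was not tested. The likeness ranking was less stable: of the 10 highest genes 0 were shared by Spearman's rho, 3 over the 8 group means and 2 without the SA 0 h arrays, and of the 5 lowest 1, 3 and 3. Centred values carry no level, so signal over background is unknown.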
